A study of Mus musculus with 10 samples.

Results

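The genes described here encode growth factors, a cytokine and a matricellular protein that platelets keep in alpha-granules or carry as RNA. They are Angpt1, Sparc, Pdgfa, Pdgfb, Pdgfc, Tgfb1, Vegfa, Vegfc, Egf and Il7, taken by symbol from the deposited count tables, and all 10 had a row among 53819 gene symbols. Platelet RNA was sequenced from mice labelled P7, taken to mean postnatal day 7, and from adults, with 5 libraries per age. The P7 libraries carry the letters A, B, C, E and I, and the adult ones A, B, C, G and H. No treatment, genotype, strain, sex or exact adult age is given in the sources used here, nor whether a library came from 1 animal or a pool, and p-values therefore reflect only the spread among libraries, which may be technical.

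Platelets are anucleate and carry RNA passed on by megakaryocytes, which also load much of the cargo of the alpha-granule, the most abundant platelet granule. When platelets are activated, the granules fuse with the surface and release factors that act on vessel walls, smooth muscle, fibroblasts and leukocytes. Angiopoietin-1 steadies vessels through the receptor TIE2, the PDGF chains drive the growth of mesenchymal cells, and TGF-beta 1 leaves the platelet in a latent form that has to be activated. SPARC binds collagen and calcium, VEGF-A and VEGF-C act on blood and lymphatic vessels, and interleukin-7 sustains lymphocytes.

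Of the 10 genes, 5 had enough reads to be tested, and 3 of these were called different between the ages. Sparc was 4.93-fold higher at P7, while Angpt1 was 4.36-fold and Il7 16.6-fold lower. Il7 passed the filter on low counts through its adult reads, so its call is a description only. In bulk RNA of this kind, fewer cells of a type and less RNA per cell cannot be told apart. Pdgfa and Tgfb1, which were abundant at both ages, did not pass the test. Pdgfb, Pdgfc, Vegfa, Vegfc and Egf had at most 12 reads in any library. As a background, 27.7% of all 8198 tested genes were called between the ages (13.8% higher and 13.9% lower at P7), with adjusted p under 0.05 as the threshold in edgeR. Since only 5 members passed the filter, their calls are described 1 by 1, and their share is not set against that background.

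RefSeq promoter windows, which run from 250 bases before to 50 after a start on GRCm38.p6, were found for Sparc, Pdgfa, Pdgfc, Tgfb1, Vegfa, Vegfc and Egf, 7 of the 10 genes. The 250 bases before the start are shown for Sparc, which was higher at P7, and for Tgfb1, which did not pass the test. They were picked because both were measured in every library and have 1 annotated window each. The Sparc stretch lies at chr11:55420081-55420330 on the minus strand, and the Tgfb1 stretch at chr7:25686752-25687001 on the plus strand, both written 5′ to 3′ along the gene. Capitals mark GC boxes (GGGCGG) and ETS motifs (AGGAAG or CGGAAG), on either strand.
Sparc: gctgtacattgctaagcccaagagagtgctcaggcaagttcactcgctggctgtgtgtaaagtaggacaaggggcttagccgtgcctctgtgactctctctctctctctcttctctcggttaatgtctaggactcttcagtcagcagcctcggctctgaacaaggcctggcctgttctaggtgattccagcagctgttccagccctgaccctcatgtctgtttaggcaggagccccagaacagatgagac
Tgfb1: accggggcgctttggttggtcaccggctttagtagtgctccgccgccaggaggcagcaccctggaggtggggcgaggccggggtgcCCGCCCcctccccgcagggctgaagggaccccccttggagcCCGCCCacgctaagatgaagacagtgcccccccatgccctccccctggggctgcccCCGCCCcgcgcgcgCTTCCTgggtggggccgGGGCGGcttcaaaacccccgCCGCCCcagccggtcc

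The whole Tgfb1 window of 300 bases was 77% G and C and held 6 GC boxes and 1 ETS motif, with 1 of the GC boxes beyond the stretch shown. The Sparc window was 55.3% G and C and had no match to either motif, nor to a GATA motif (AGATAA or AGATAG, or the same with T as the first letter), an AP-1 motif (TGANTCA) or a TATA box (TATAAA). No 2 matches overlapped in the Tgfb1 window. Of 32851 windows of the same length, 35.7% held a GC box, 46.5% an ETS motif, 29.8% a GATA motif, 7.81% an AP-1 motif and 13.6% a TATA box. These are matches of letters in a window and were not tied to any measurement of binding.

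Angpt1 encodes the ligand of TIE2. Its level, in TMM-scaled CPM (read counts relative to library size), was 64.8 in P7 A, 65.4 in P7 B, 66.4 in P7 C, 122 in P7 E and 147 in P7 I. In adults it was 425 in A, 312 in B, 204 in C, 463 in G and 625 in H. Each adult library was thus above each P7 library, and P7 E and I stood above the other P7 libraries. Means were 93.1 ± 38.9 CPM in P7 libraries and 406 ± 159 CPM in adult ones (SD, n = 5 each). Angpt1 was lower at P7 by 2.12 ± 0.32 on the log2 scale (SE, edgeR adjusted p = 0.000407). The 95% interval of the log2 fold change, taken with 8 residual degrees of freedom, ran from -2.86 to -1.39. Per GENCODE M21, 14.2% of the exonic length of Angpt1 overlaps Gm17473 on the other strand, which had 0 to 28 reads per library. Among all tested genes, 19.8% had no overlap between the ages.

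Il7, the lymphocyte growth factor gene, was rare at both ages and had the largest change of the 5 tested genes. Its level was 0.443 CPM in P7 A, 0.103 in P7 B, 0.161 in P7 C, 0.560 in P7 E and 1.19 in P7 I. The 5 P7 libraries together held 57 Il7 reads, and P7 B held 2. Adult levels of Il7 were 5.44 CPM in A, 6.66 in B, 4.97 in C, 5.31 in G and 19.0 in H, from 827 reads in all. Il7 passed the filter through these adult reads, so its call is a description only. The ages did not overlap, and adult H was far above the other adults. Means were 0.491 ± 0.433 CPM in P7 libraries and 8.29 ± 6.05 CPM in adult ones (SD, n = 5 each), and Il7 fell by 4.06 ± 0.59 on the log2 scale (SE; edgeR adjusted p = 0.000275). The log2 fold change of Il7 was -3.50 without adult H and -4.66 without P7 I, and it passed in both fits. By size of log2 fold change Il7 ranked 38 of 8198 tested genes, with Sparc at 248 and Angpt1 at 322.

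Sparc, the collagen-binding matricellular gene, went the other way. Its level was 9.86 CPM in P7 A, 4.24 in P7 B, 13.8 in P7 C, 13.7 in P7 E and 12.3 in P7 I, against 1.29 in adult A, 1.42 in adult B, 1.56 in adult C, 3.73 in adult G and 2.93 in adult H. The lowest P7 library, B, was close to the highest adult library, G, but did not overlap it. Means were 10.8 ± 3.98 CPM in P7 libraries and 2.18 ± 1.09 CPM in adult ones (SD, n = 5 each). Sparc was higher at P7 by 2.30 ± 0.37 on the log2 scale (SE, 95% interval 1.44 to 3.16, edgeR adjusted p = 0.000472).

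**Figure D1:**
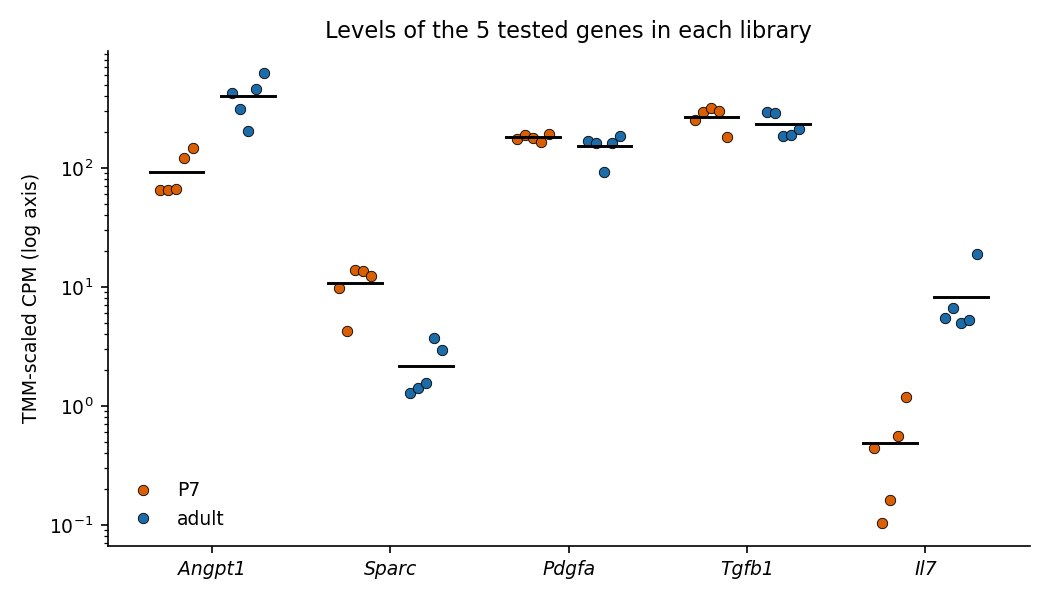
TMM-scaled CPM on a log axis for the 5 tested genes, with 1 point per library (orange P7, blue adult, letters in order from left to right) and bars at the group means. Angpt1 and Il7 are lower and Sparc higher in each P7 library, while Pdgfa and Tgfb1 overlap.

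Pdgfa encodes the A chain of platelet-derived growth factor. It ranged from 165 CPM in P7 E to 193 CPM in P7 I, with a median of 179, and from 92.0 CPM in adult C to 185 CPM in adult H, with a median of 162. The other adult libraries lay between 161 and 169 CPM, so the ages overlapped and adult C stood apart. Means were 180 ± 11.6 CPM in P7 libraries and 154 ± 35.8 CPM in adult ones (SD, n = 5 each), with a log2 fold change of 0.23 ± 0.17 (SE; 95% interval -0.16 to 0.63, edgeR adjusted p = 0.35). Per GENCODE M21, 26.1% of the exonic length of Pdgfa overlaps a gene on the other strand, 6330403L08Rik, which had 109 to 360 reads per library. Reads of the overlap cannot be assigned without strand, and the strand setting is unknown here.

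Tgfb1, the gene of TGF-beta 1, was at 254 CPM in P7 A, 292 in P7 B, 320 in P7 C, 302 in P7 E and 181 in P7 I. Adult levels were 293 CPM in A, 290 in B, 187 in C, 187 in G and 212 in H. High and low libraries occurred at both ages, and the groups overlapped over most of their range. Means were 270 ± 55.4 CPM and 234 ± 53.7 CPM (SD, n = 5 each), with a log2 fold change of 0.21 ± 0.19 (SE; 95% interval -0.22 to 0.64, edgeR adjusted p = 0.45). The intervals of Pdgfa and Tgfb1 reach 0.63 and 0.64 on the log2 scale, and the signs of both values turned with the GC trend removed, at -0.16 for Pdgfa and -0.05 for Tgfb1.

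The other 5 genes stayed under the filter on low counts. Pdgfb, the B chain gene, had 12, 0, 5, 2 and 9 reads in the P7 libraries (in the order of letters above) and 6, 6, 3, 7 and 0 in adult A, B, C, G and H. Vegfa had 12, 7 and 5 reads in P7 A, B and C and 0 in P7 E and I, against 7 in adult G, 2 in adult H and 0 in the other adults. Both genes were thus found at both ages at under 0.5 CPM, with 28 and 22 reads of Pdgfb and 24 and 9 reads of Vegfa at P7 and in adults. Vegfc had 6, 2 and 5 reads in P7 A, B and E and 0 in P7 C and I, and 5, 12, 1, 11 and 2 in the adults, with 13 and 31 reads per age.

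Pdgfc was seen only as 5 reads in P7 A and 2 in adult H. Egf was seen as 3 reads in P7 I and had 0 counts in the 5 adult libraries, where a count of 0 allows up to 0.129 to 0.154 CPM per library (3 counts of the total, counting error only). At this depth, of 19431863 to 25029931 reads per library, no difference between the ages was detectable for these 5 genes, and no fold is given. Without a filter edgeR tested all of them and called 0, and DESeq2 gave an adjusted p for 3 of them and called 0. None of the 5 had an unadjusted p under 0.05 in edgeR.

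**Figure D2:**
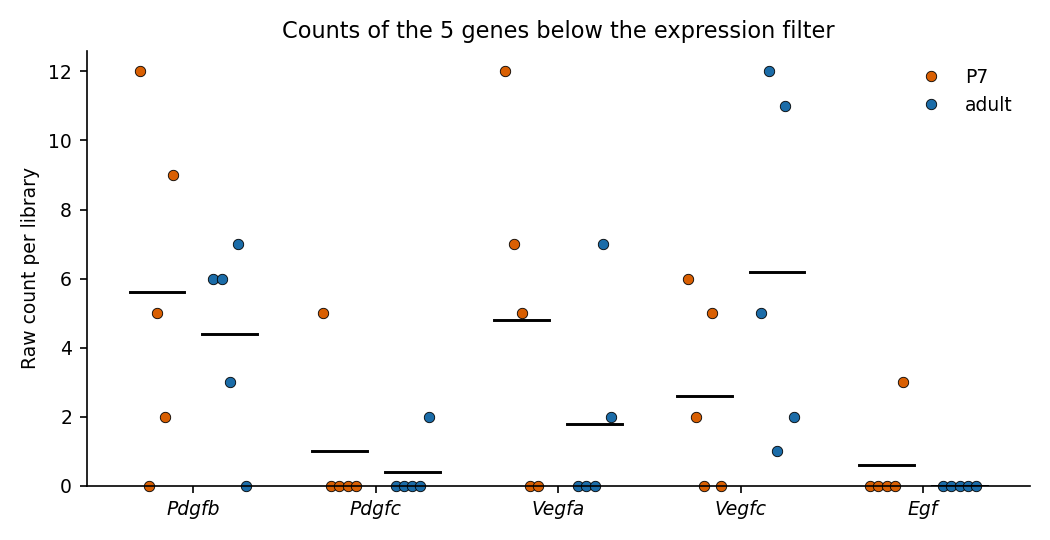
Raw reads per library for the 5 genes below the expression filter, with 1 point per library (orange P7, blue adult) and bars at the group means. The highest value is 12, and each gene has libraries at 0 in at least 1 age.

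Levels of different genes were compared per kilobase of exon, using exon lengths of GENCODE M21. At P7 the order was Pdgfa at 57.8 ± 3.71 CPM per kilobase, Tgfb1 at 53.5 ± 10.99, Angpt1 at 17.9 ± 7.46, Sparc at 2.84 ± 1.05 and Il7 at 0.0866 ± 0.0765 (SD, n = 5). Pdgfa and Tgfb1 could not be told apart in that order, since Pdgfa was first in 3 libraries and Tgfb1 in 2, while Angpt1 came next in 5 of 5. In adults Angpt1 was first in 5 of 5 libraries, at 78.0 ± 30.6 CPM per kilobase, ahead of Pdgfa at 49.3 ± 11.5 and Tgfb1 at 46.4 ± 10.6, which again exchanged places between libraries. Il7, at 1.46 ± 1.07, was above Sparc, at 0.577 ± 0.286, in 4 of 5 adult libraries and below it in each P7 library.

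Angpt1 made up 13.5 ± 5.58% of the summed level per kilobase of the 5 genes at P7, from 9.29 to 21.8%, and 43.2 ± 7.92% in adults, from 35.1 to 53.3% (SD, n = 5 each). The share of Pdgfa was 43.9 ± 4.05% at P7 and 28.1 ± 1.51% in adults, and that of Tgfb1 40.4 ± 7.31% and 27.5 ± 7.43%. These shares are descriptions, and each gene's share moves with the levels of the others.

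Angpt1 and Il7 also varied together among libraries of 1 age: both were highest in P7 I and adult H, and lowest among adults in C. Over deviations from the age means of the 10 libraries, Pearson's r of log2 CPM was 0.75 for this pair and 0.64 for Angpt1 and Pdgfa. Sparc, which differed between the ages in the opposite direction, had r = 0.54 with Angpt1 and 0.50 with Il7 over the same deviations, while Tgfb1 had r = -0.26 with Angpt1 and -0.48 with Il7. The points share library and depth, and these values are given as a description.

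By the same measure, the genes most like Angpt1 out of 1944 genes averaging 20 CPM or more (1945 for Sparc and Il7) were Ptpn12, a tyrosine phosphatase gene (r = 0.94), Nucks1 (0.93) and Ccdc12 (0.92). Over the 10 libraries without removing age the nearest were Ptpn12, Hnrnpc and Aida, at r = 0.98, 0.97 and 0.97, values that hold the age difference itself. For Sparc the nearest over deviations were Lrp10 (0.86), Slc44a1 (0.85) and Eloa (0.84), and over the 10 libraries Abcc5, Dnajc8 and Cdkn2d (0.94, 0.93 and 0.93). For Il7 they were Sypl (0.89), Slmap (0.86) and Zeb2 (0.86) over deviations, and Wdr44, Psmg2 and Golph3 (0.97, 0.96 and 0.96) over the 10 libraries. Only Ptpn12 was among the 3 nearest on both measures.

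Genes of the same pathways were taken from 6 lists with 139 symbols, of which 53 passed the filter, and 9 of these were higher and 11 lower at P7. Scaling by library size alone gave 10 higher and 8 lower. With TMM, 13.8% of all 8198 tested genes were higher and 13.9% lower at P7. The lists were chosen with earlier results of these data known, so no conclusion is drawn from their share.

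Among other growth factors and cytokines, 0 of 7 tested genes were higher and 1 was lower, with a median log2 fold change of -0.19 against 0.05 for all tested genes. The lower one was Il15, a cytokine that like interleukin-7 supports lymphocytes, at 21.5 ± 6.32 CPM in P7 libraries and 45.3 ± 16.1 CPM in adult ones (SD, n = 5 each). Its log2 fold change was -1.07 ± 0.25 (SE; edgeR adjusted p = 0.00527), with overlap between the ages. Of the 44 symbols, 10 had 0 counts in the 10 libraries, among them Thpo, Fgf2 and Angpt4. These 3 were named after their values were seen.

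Receptors for the 10 proteins were mostly rare: 6 of 20 passed the filter, with 1 higher, 0 lower and a median log2 fold change of 0.18. Il2rg, the common gamma chain that forms part of the interleukin-7 receptor, was at 1.84 ± 0.905 CPM in P7 libraries and 0.844 ± 0.187 CPM in adult ones (SD, n = 5 each), with an edgeR adjusted p = 0.0425. Its call was lost without P7 A, B or C or any 1 adult library, at log2 fold changes of 0.80 to 1.19 against 1.12. Il7r, the specific chain of that receptor, had 9 reads at P7 and 3 in adults. Tek, which encodes TIE2, had 40 and 20 reads, and the PDGF receptor gene Pdgfra had 55 at P7 and 0 in adults. Il7r, Tek and Pdgfra did not pass the filter and were named after their values were seen.

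In the list of latent TGF-beta handling and SMADs, 2 of 14 tested genes were higher and 5 lower, with a median of -0.27. The gene of thrombospondin-1, a granule protein that can activate latent TGF-beta, was higher at P7. Thbs1 was at 5219 ± 1574 CPM in P7 libraries and 2172 ± 688 CPM in adult ones, a log2 fold change of 1.26 ± 0.24 (edgeR adjusted p = 0.00181). Ltbp1, whose product holds latent TGF-beta 1 in the large complex of platelets, was lower at P7 by 0.61 ± 0.15 on the log2 scale. Its level was 591 ± 116 CPM in P7 libraries and 899 ± 66.5 CPM in adult ones (SD, n = 5 each, edgeR adjusted p = 0.00686). Ltbp2, a relative, was higher by 1.10 but lost its call without P7 A, C or E or adult A, B, C or H, at 0.90 to 1.12, and at 0.75 with the GC trend removed. The SMAD genes Smad1 and Smad5, known as mediators of the BMP branch, were lower by log2 fold changes of -2.35 ± 0.37 and -1.64 ± 0.43 (SE), and the integrin chain gene Itgav by -1.37 ± 0.30. Levels of Smad1 were 4.50 ± 2.22 CPM in P7 libraries and 23.0 ± 9.41 CPM in adult ones, without overlap. Those of Smad5 were 0.583 ± 0.267 CPM in P7 libraries and 1.82 ± 0.681 CPM in adult ones, with overlap. Smad5 (67 reads at P7 and 196 in adults) passed the filter through its adult reads, so its call is a description only.

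Of the proteases that process the precursors, 4 of 13 passed the filter, with 0 higher, 1 lower and a median of -0.07. Adam17, a sheddase of membrane-bound growth factors, had a log2 fold change of -0.64 ± 0.20 (SE; edgeR adjusted p = 0.0252), and did not pass without P7 A or adult A or B (-0.62 to -0.59) or with the GC trend removed.

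Other alpha-granule cargo had 5 higher and 4 lower of 20 tested genes and a median of 0.01. Ppbp, the precursor of platelet CXC chemokines, fell by 1.57, Selp, the P-selectin gene, by 1.55 and Aplp2, a relative of the amyloid precursor gene, by 1.11 on the log2 scale. Itgb3, the beta chain of the fibrinogen receptor, was higher by 0.90 and Thbs1 by 1.26. Spp1, the osteopontin gene, was higher by 2.88 at low levels of 1.59 ± 0.438 CPM and 0.212 ± 0.296 CPM (SD, n = 5 each), and by 4.17 without adult C. Spp1 passed the filter through its P7 reads, with 185 at P7 and 22 in adults, so its call is a description only. With the 6 libraries of letters A to C alone Spp1 did not pass. Pf4, the platelet factor 4 gene, had a log2 fold change of 0.05 (edgeR adjusted p = 0.81), named after its values were seen.

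**Figure D3:**
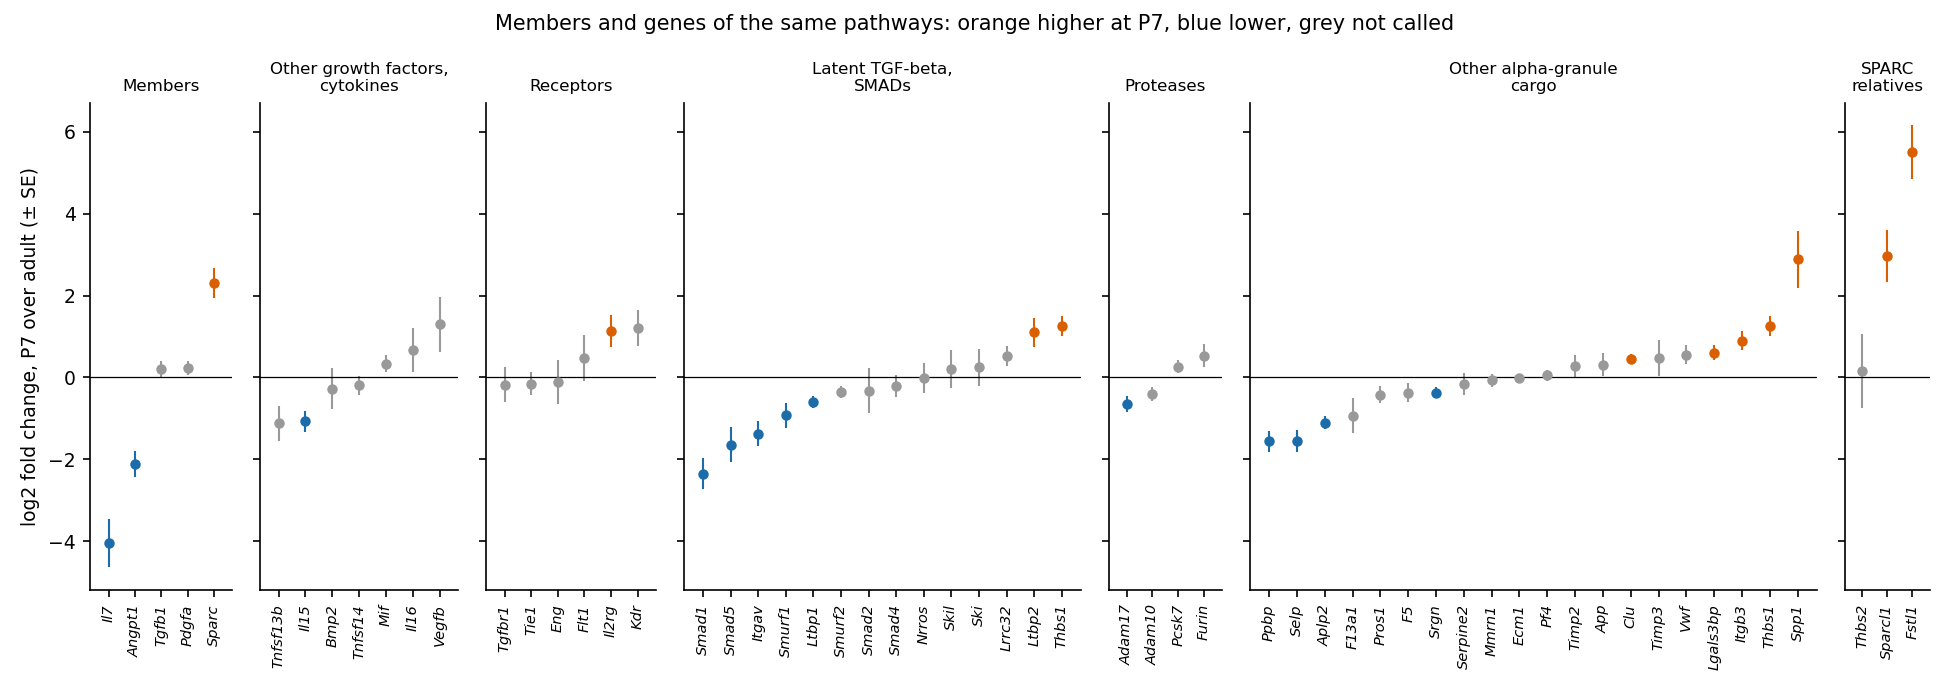
Log2 fold changes, P7 over adult, with SE, for the tested members and the tested genes of the 6 lists (orange higher, blue lower, grey not called). Sparc and Il7 lie at opposite ends among the members, and the SPARC relatives Fstl1 and Sparcl1 lie higher still than Sparc.

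Among relatives of SPARC, 3 of 11 genes passed the filter and 2 were higher, with 0 lower and a median log2 fold change of 2.96. Sparcl1 (689 reads at P7 and 75 in adults) and Fstl1 passed the filter through their P7 reads. Their calls and this median are therefore descriptions only. Sparcl1, a close relative of Sparc, was at 5.70 ± 3.28 CPM in P7 libraries and 0.739 ± 0.704 CPM in adult ones (SD, n = 5 each), a log2 fold change of 2.96 ± 0.64 (SE; edgeR adjusted p = 0.00419). Its lowest P7 library was B, at 1.86 CPM, and its highest adult libraries were H and G, at 1.78 and 1.11 CPM, the libraries that were lowest and highest for Sparc as well. Fstl1, which shares a SPARC-like module, was at 2.78 ± 1.22 CPM in P7 libraries and 0.0525 ± 0.0705 CPM in adult ones, from 325 and 6 reads. Its log2 fold change of 5.50 ± 0.65 (SE; edgeR adjusted p = 4.46e-05) rests on those few adult reads and was 6.53 without adult B.

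SPARC is also made by fibroblasts and endothelial cells, and some of their markers were higher at P7. The summed level of 18 fibroblast and stromal markers ran from 23.3 to 63.7 CPM at P7 and from 1.59 to 22.3 CPM in adults, and 7 of the 18 passed the filter. Col3a1, Cxcl12, Dcn and Col1a1 were called higher and 0 were called lower, but these 4 passed the filter through their P7 reads, with 16, 7, 10 and 36 reads in all adult libraries together, so that their count is a description only. Col3a1 was at 2.94 to 8.41 CPM in the P7 libraries, while 15 of its 16 adult reads were in adult C, as were the 10 adult reads of Dcn. Col1a1 was at 1.86 to 3.50 CPM at P7 and 0 to 1.56 CPM in adults, a call that was lost on leaving out any 1 library other than adult C. Endothelial markers, led by genes that platelets express too, summed to 2869 to 6031 CPM at P7 and 3303 to 4298 CPM in adults, with 2 higher and 0 lower of 10 tested. Those higher were Plvap, at 123 ± 35.0 CPM in P7 libraries and 45.7 ± 12.4 CPM in adult ones (SD, n = 5 each), and Cdh5, the VE-cadherin gene, at 1.91 to 5.63 CPM at P7 and 0 to 2.14 CPM in adults. Cdh5 passed the filter through its 468 P7 reads, so its call is a description only. Of the 57 adult reads of Cdh5, 50 were in adult G, and its log2 fold change of 2.92 was 5.40 without that library. Cdh5 lost its call without P7 A, C or E or adult A, B or H. The other endothelial genes of the list were mixed. Kdr (45.4 and 19.7 CPM at P7 and in adults), Vwf (3418 and 2324) and Flt1 (2.25 and 1.60) had higher means at P7 without passing. Pecam1 (767 and 837 CPM), Tie1 (90.8 and 101), Esam (375 and 473), Eng (0.718 and 0.771) and Egfl7 (0.617 and 0.948) had lower ones, also without passing. Below the filter were Tek at 0.322 and 0.195, Cldn5 at 0.194 and 0.206, Emcn at 0.228 and 0.194 and Robo4 at 0.0965 and 0.0686 CPM. These marker genes were named after their values were seen.

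Library by library, Sparc went with these markers in some cases and not in others. P7 B was the lowest P7 library for Sparc (4.24 CPM), Cdh5 (1.91), Col3a1 (2.94), Col1a1 (1.86), Dcn (0.517) and Sparcl1 (1.86). It was not the lowest for Fstl1 (3.20 CPM), Col1a2 (3.31), Cxcl12 (0.723) or the stromal sum (26.9 CPM). P7 C was the highest of the P7 libraries for Sparc (13.8 CPM) and for the stromal sum (63.7 CPM), and adult G was the highest adult for both Sparc (3.73 CPM) and Cdh5 (2.14 CPM). P7 E and I had Sparc at 13.7 and 12.3 CPM beside stromal sums of 23.3 and 27.8 CPM, and adult C had the highest adult stromal sum, 22.3 CPM, beside Sparc at 1.56 CPM. The part of stromal or endothelial RNA in the Sparc difference was not tested.

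**Figure D4:**
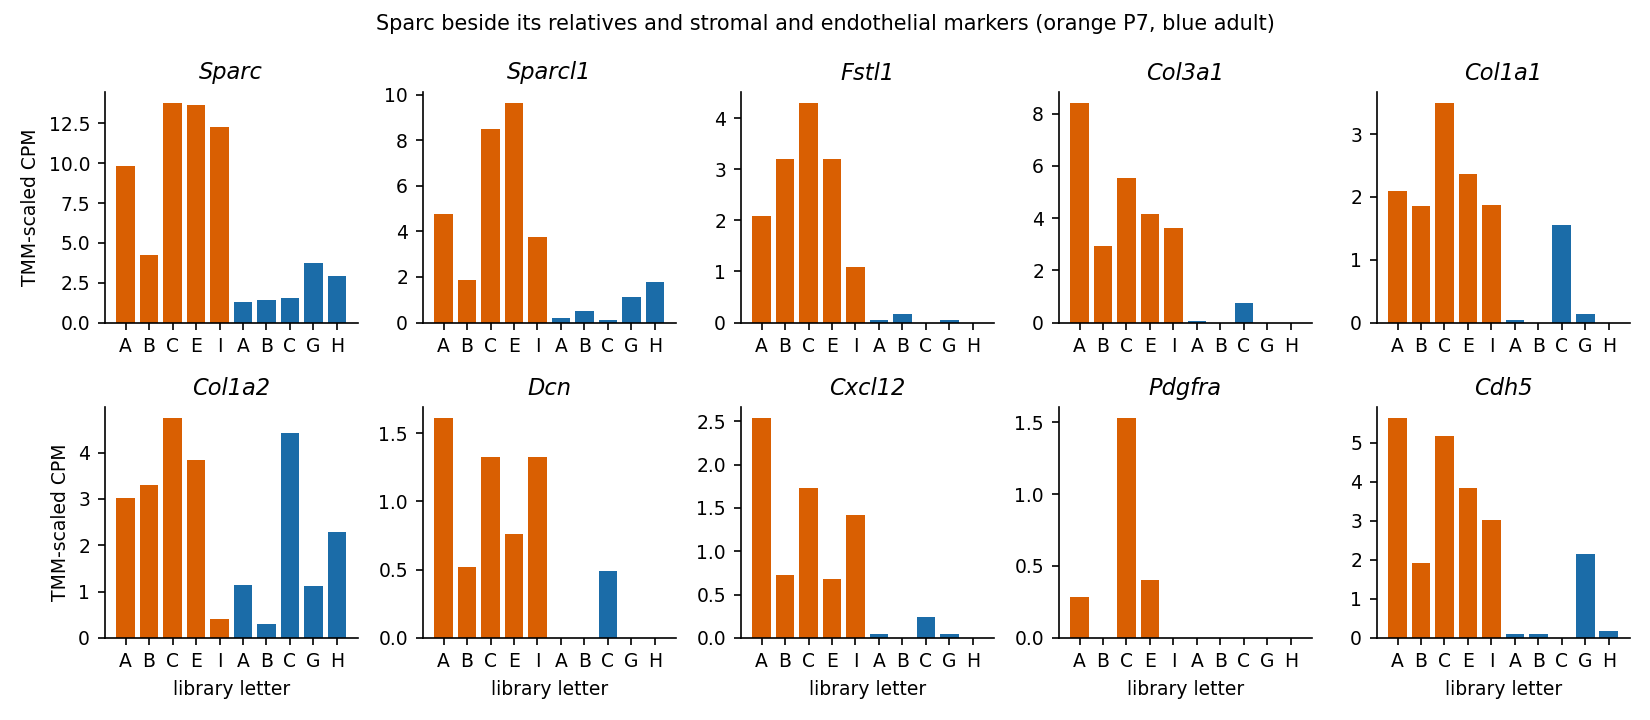
TMM-scaled CPM in each library for Sparc, its relatives Sparcl1 and Fstl1, and markers of stromal and endothelial cells (orange P7, blue adult, bars from 0). The P7 libraries are higher in most panels, and adult C holds nearly all adult reads of Col3a1 and Dcn.

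Markers of blood cells were compared in the same way. Platelet markers summed to 62012 to 85248 CPM at P7 and 61074 to 91661 CPM in adults, with 5 higher and 4 lower of 14 tested. Erythroid markers summed to 984 to 2557 and 583 to 1781 CPM (5 higher and 0 lower of 15 tested), and neutrophil markers to 42.2 to 72.0 and 13.9 to 36.8 CPM (2 higher and 0 lower of 3 tested, mostly Trem1, with Ly6g, Cxcr2 and Stfa1 at 0). T and NK markers summed to 10.04 to 16.2 CPM at P7 and 13.3 to 24.2 CPM in adults (0 higher and 1 lower of 5 tested), and B cell markers to 9.70 to 28.4 and 6.25 to 7.86 CPM (1 higher and 0 lower of 4 tested). Monocyte and macrophage markers summed to 2399 to 3755 and 2972 to 6163 CPM (1 higher and 1 lower of 4 tested). Most of this was Lyz2, with means of 2765 (P7) and 4363 CPM (adult), followed by F10, with 220 and 67.3 CPM. Csf1r (0.725 and 0.216 CPM) and Cd68 (0.595 and 0.445) were below the filter. Progenitor and cycling markers summed to 116 to 145 and 154 to 192 CPM (2 higher and 1 lower of 6 tested). That last sum is mostly Gata2, with means of 78.4 (P7) and 91.1 CPM (adult), and Runx1, with 26.3 and 75.9 CPM. The cycling genes of the list went the other way in their means: Rrm2 was called higher, at 2.48 and 0.126 CPM, Mki67 was at 1.998 and 0.838 CPM without passing, and Top2a (1.60 and 0.106), Cdk1 (0.709 and 0.0413) and Ccnb1 (0.652 and 0.00857) were below the filter. Rrm2 (290 reads at P7 and 13 in adults) and the erythroid marker Car1 (161 and 11) passed the filter through their P7 reads. So did the neutrophil marker Prtn3 (176 and 44), and the calls of these genes are descriptions only. The blood cell markers, too, were named after their values were seen. Their part in the results was not tested beyond the covariate fits. Adding the erythroid marker level to the fit (age held 77.3% of its variance), 0 of the 5 genes passed the edgeR test, at log2 fold changes of -1.89 for Angpt1, -4.17 for Il7 and 2.52 for Sparc, each with an unadjusted p under 0.05 (adjusted p = 0.19, 0.11 and 0.15). The neutrophil level was the mean log2 CPM of only 3 genes, Prtn3, Mmp8 and Trem1 (age held 88.2% of its variance). With this level in the fit, Il7 passed, at -6.72, and Angpt1 (-3.19) and Sparc (1.39) did not (adjusted p = 0.0651 and 0.50 in the same edgeR test). Most of the variance of both covariates thus cannot be told apart from age.

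In GENCODE M21 Angpt1 and Il7 had the lowest GC content of the 10 genes, at 39.0% and 40.8%, against 53.5% for Sparc, 54.7% for Tgfb1 and 59.2% for Pdgfa. With the trend on GC content removed from each library, the log2 fold changes were -1.75 for Angpt1, -3.77 for Il7 and 2.11 for Sparc, and all 3 passed (adjusted p = 0.00107, 0.000494 and 0.000877 in edgeR's quasi-likelihood test).

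**Figure D5:**
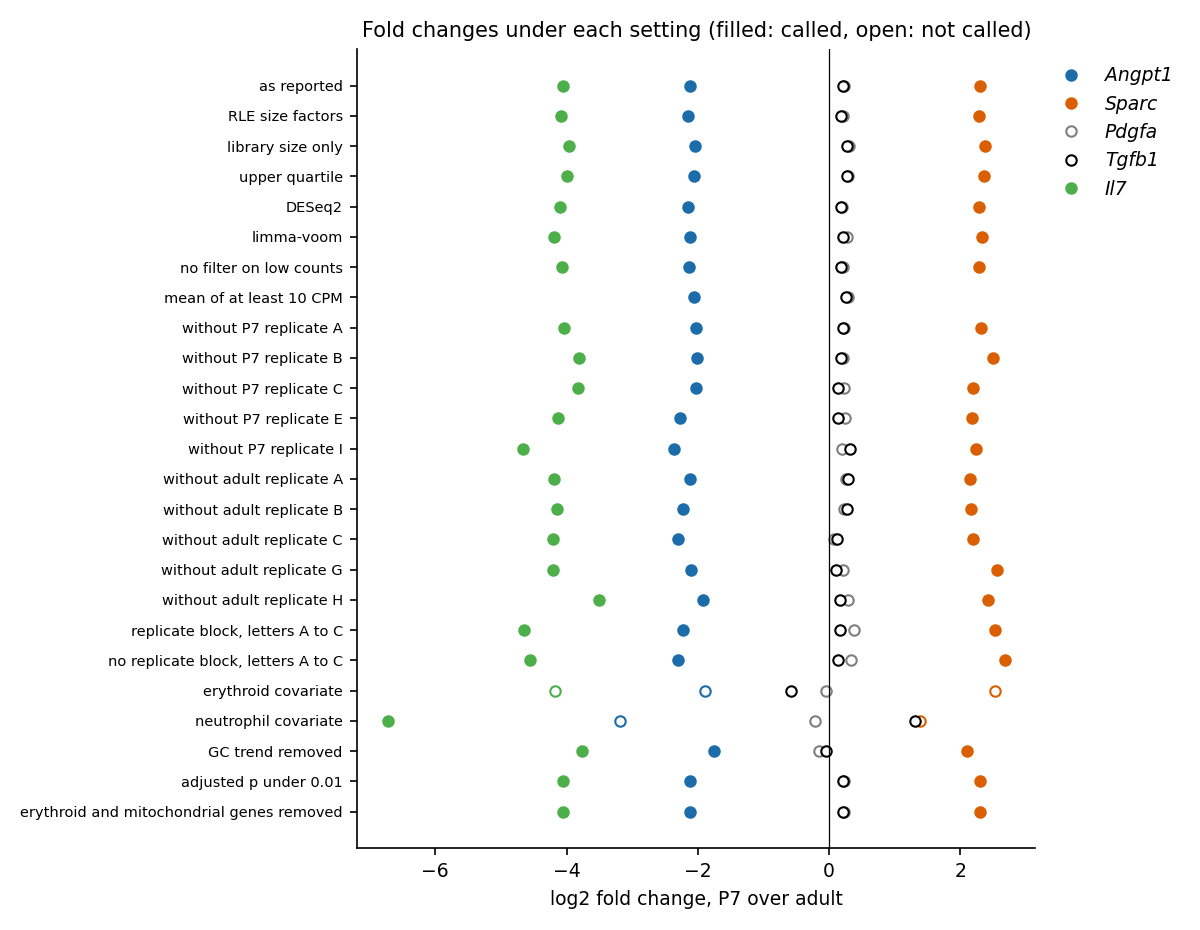
Log2 fold change of the 5 tested genes under each setting (x axis), with filled points called and open points not called. The signs of Angpt1, Il7 and Sparc were the same in each setting drawn. Calls were lost only with a marker covariate, and Il7 and Sparc have no value with the filter of 10 CPM.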

How the data were processed

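RNA was extracted with Trizol, and cDNA was amplified from 1 ng of total RNA with a SMARTer low-input kit and made into Nextera XT libraries, per the labels' protocols. The authors deposited 1 table of unnormalized read counts by gene symbol for each library. Tools named in the submitters' processing notes, without roles, are Salmon 1.5.2, STAR 2.7.9a, fastp 0.23.1 and Subread 2.0.1 (featureCounts). Neither genome build nor strand setting is given in the sources used here. Libraries carry no molecular identifiers, and limits derived from counts therefore hold for counting error alone.

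Genes were filtered with filterByExpr (count of 10, total of 15), scaled with TMM and tested over all kept genes with edgeR 4.0.16 (R 4.3.3, quasi-likelihood, robust), with age as the only term and Benjamini-Hochberg adjustment. Levels are TMM-scaled CPM. The edgeR, DESeq2 and limma-voom fits were also run on simulated counts drawn with edgeR's own estimates of spread. Such a run cannot show how the fits behave where real libraries depart from that model. Alternatives used DESeq2 1.42.0, limma-voom (limma 3.58.1), other scalings and filters, marker covariates, a GC correction and each library left out. Exon lengths and GC content came from GENCODE M21, matched by symbol (97.7% of tested genes had a GC value). The members and lists were chosen with earlier results of these data known. Of each pathway list, up to 6 called genes with the smallest p are named (marker genes were picked after their values were seen), and for Angpt1, Sparc and Il7 the 3 genes most correlated with each. Where GRCm38 sequence is shown it is RefSeq's.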

Additional observations from a re-analysis of the deposited data

Results flagged for a closer look

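Each gene's 5 libraries of 1 age were examined for a library far from the others, 20 groups in all. Chance alone would mark about 1 in 20 where levels spread normally. Where all libraries but 1 are at 0, that 1 is always marked, and the adult libraries of Egf, all at 0, could not be marked. Il7 in adult H was at 19.0 CPM, from 332 reads, where the next adult was at 6.66 CPM. Without adult H the log2 fold change of Il7 was -3.50, and it still passed. Pdgfa in adult C was at 92.0 CPM, where the next adult was at 161 CPM, and its log2 fold change went from 0.23 to 0.08 without that library. The other 3 cases were single libraries with a few reads beside libraries at 0: Pdgfc in P7 A at 0.201 CPM (5 reads), Pdgfc in adult H at 0.115 CPM (2 reads) and Egf in P7 I at 0.137 CPM (3 reads), which lie near the level that a count of 0 allows.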

How the results depend on the processing

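Of the 5 tested genes 3 were called, with 1 higher and 2 lower. The call of Il7 among them is a description only, since it passed the filter through its adult reads. These 3 calls held with each library left out, the other scalings, DESeq2, limma-voom, no filter, the GC correction and a threshold of 0.01. With a filter of 10 CPM, which Sparc and Il7 do not reach, 1 was called; 0 were called with erythroid level in the fit (3 at an unadjusted p under 0.05 in edgeR) and 1 with neutrophil level. The pathway genes called went from 20 to 2, 3 and 12 with the erythroid covariate, the neutrophil covariate and the threshold of 0.01. Log2 fold changes turned sign for Pdgfa with the erythroid covariate (-0.0498), the neutrophil covariate (-0.21) and the GC trend removed (-0.16), for Tgfb1 with the erythroid covariate (-0.57) and the GC trend removed (-0.0484), and, with the neutrophil covariate, for Ltbp1 (0.000416) and Adam17 (0.55). The cause was not tested. Over all genes 77 were called with the erythroid and 95 with the neutrophil covariate and 1228 at 0.01, against 2272. With the filter of 10 CPM, which leaves fewer genes to test, 1215 were called. The letters A to C occur at both ages, and the labels do not say whether they pair the libraries. Correlations of deviations were -0.04, 0.06 and 0.01, and none of these P7 libraries correlated best with its own letter. Such correlations cannot settle whether the libraries were paired. With the letters as a replicate block over these 6 libraries 1416 genes were called, against 1886 without the block, and 3 of the members in both fits, with 17 and 21 pathway genes. Leaving out 1 library gave 15 to 22 pathway genes. Counts below about 10 reads per library set the limit for the 5 untested genes.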
